A study of Homo sapiens with 8 samples.

Results

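The pyruvate dehydrogenase genes described here were 4 kinases (PDK1, PDK2, PDK3 and PDK4), 2 phosphatases (PDP1 and PDP2) and 4 subunits of the complex (PDHA1, PDHB, DLAT and PDHX). They were found by gene symbol in the tables of counts and make up 10 of the 23193 genes counted. Their transcription was measured by PRO-seq, which sequences RNA that engaged polymerases extend in isolated nuclei and so reads transcription as it happens rather than stored RNA. The cells were HCT116, a human colorectal carcinoma line, either wild type (WT) or HIF1A-/-. In the HIF1A-/- line exons 3 and 4 of HIF1A, the gene for the oxygen-regulated subunit of hypoxia-inducible factor 1, were disrupted by homologous recombination with an adeno-associated virus vector, and the gene of the related factor HIF2A was not targeted. Each genotype was kept in normoxia or at 1% O2 for 90 min, all cultures received DMSO as vehicle, and 2 libraries from independently prepared nuclei were made in each of the 4 groups. Nuclei of several plates were pooled for each library. Only 1 HIF1A-/- line was studied, and whether it is a single clone is not given in the sources used here, so effects of the deletion and of the line cannot be told apart, and p-values below measure the spread between 2 nuclei preparations. As these are bulk libraries, fewer cells transcribing a gene and less transcription per cell cannot be told apart either.

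Gene body totals were 18125234 to 23622392 reads and totals over the transcription start site (TSS) were 2783581 to 5966348. The TSS totals of the replicate 1 HIF1A-/- libraries were the lowest, and in these libraries the median gene had 5.83 and 6.66 times the read density at its TSS as in its body, against 9.29 to 11.5 in the other 6. All 10 genes passed the filter on low counts in both tables. Levels are given as CPM, counts per 1000000 counted reads of the table. HIF1A itself had gene body levels of 129 to 164 CPM in the 4 WT libraries and 141 to 172 CPM in the 4 HIF1A-/- libraries. The promoter and most of the gene remain in the HIF1A-/- line, so these levels do not test the genotype labels. Of the epithelial markers checked, EPCAM, CDH1, KRT8, KRT18 and KRT19 lay between 48.2 and 516 CPM in all 8 libraries, and VIL1 at most at 0.635. Of the markers of other cell types, PTPRC, CD3E, PECAM1 and COL1A2 did not pass the filter, CDH5 reached 1.65 CPM and COL1A1 19.0 to 50.3. The summed level of the 6 epithelial markers ran from 838 to 938 CPM in WT normoxia, from 936 to 1128 in WT hypoxia, from 1071 to 1098 in normoxia without HIF1A and from 1179 to 1209.8 in hypoxia without it. The summed level of the 6 other markers, mostly that of COL1A1, ran from 28.3 to 33.3 CPM in WT normoxia and from 39.5 to 52.8 in WT hypoxia, and from 19.5 to 46.0 in the HIF1A-/- libraries. The authors count COL1A1 among the genes whose transcription rises early in hypoxia in HCT116 cells. The epithelial sums of both WT groups overlapped and those of HIF1A-/- hypoxia were above the rest, while the other sums were higher in WT hypoxia than in WT normoxia. Their part in the results was not tested.

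The pyruvate dehydrogenase complex of mitochondria turns pyruvate into acetyl-CoA and so joins glycolysis to the citric acid cycle. The kinases switch the complex off by phosphorylating its E1 alpha subunit and the phosphatases switch it back on. PDK1 is a textbook target of hypoxia-inducible factor 1, which binds DNA at the core sequences ACGTG and GCGTG, and its induction is known for holding pyruvate back from the mitochondria when oxygen is low.

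The 248 bases before the counted start of PDK1, the member with the largest change, are shown beside those of PDK3, the kinase with the next largest difference in WT gene bodies, and of PDHB, the member with the most core matches, whose gene body did not pass the test. All are from GRCh37 and read 5′ to 3′ on the gene's strand, with matches to ACGTG or GCGTG on either strand in capitals. PDK1 lies at chr2:173420448-173420695 (plus strand, bases -248 to -1 from the counted start), PDK3 at chrX:24483093-24483352 (plus strand, -250 to 10) and PDHB at chr3:58419587-58419829 (minus strand, -250 to -8). The PDK1 stretch was shortened at its upstream end to leave out annotated exon bases, and that of PDHB ends before an annotated start at -5. As printed, no annotated exon lies under any of the 3 stretches. That of PDK1 falls in an intron of the transcripts that start further upstream.
PDK1: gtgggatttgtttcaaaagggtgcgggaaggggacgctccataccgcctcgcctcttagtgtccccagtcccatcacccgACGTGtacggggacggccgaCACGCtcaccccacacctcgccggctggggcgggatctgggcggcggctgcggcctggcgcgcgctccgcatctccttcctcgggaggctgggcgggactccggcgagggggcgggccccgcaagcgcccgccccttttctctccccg
PDK3: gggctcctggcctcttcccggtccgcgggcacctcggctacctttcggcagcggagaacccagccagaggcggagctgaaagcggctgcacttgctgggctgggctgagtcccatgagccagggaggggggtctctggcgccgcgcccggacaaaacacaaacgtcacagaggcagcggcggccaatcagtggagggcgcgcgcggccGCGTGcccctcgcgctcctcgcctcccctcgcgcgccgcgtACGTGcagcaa
PDHB: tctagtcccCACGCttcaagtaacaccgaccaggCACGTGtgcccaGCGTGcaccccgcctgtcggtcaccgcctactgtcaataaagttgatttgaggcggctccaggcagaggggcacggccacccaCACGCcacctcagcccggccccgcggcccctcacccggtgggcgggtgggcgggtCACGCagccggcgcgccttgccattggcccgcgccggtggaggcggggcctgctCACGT

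In the 300 bases from -250 to 50 around the counted start, 7 of the 10 genes held at least 1 core on either strand. The same was true of 12286 of all 23193 windows of that length (53%), so the share among these genes says little about them. PDK1 had ACGTG at -168 and GCGTG on the opposite strand at -148, and PDK3 had GCGTG at -42 and ACGTG at -1. PDHB had 7 matches, of which a pair overlaps in the palindrome CACGTG, while PDK2, DLAT and PDHX had none. The DLAT window reaches no annotated protein-coding start of that gene, the nearest lying 595 bp downstream of the counted start. A match describes letters in this window and not binding, and no match says nothing of sites elsewhere.

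PDK1 was the gene of this set that changed most. Its gene body level, counted over chr2:173421697-173463862 of GRCh37, was 31.1 and 39.1 CPM in WT normoxia and 204 and 261 in WT hypoxia, against 19.3 and 26.3 in HIF1A-/- cells at normoxia and 26.9 and 30.5 at hypoxia. The WT hypoxia libraries stood far above the other 6, and among those 6 the HIF1A-/- libraries all lay below the WT ones. PDK1 rose by 2.70 on the log2 scale in WT cells (SE 0.188, adjusted p = 0.00389 by the quasi-likelihood test of edgeR, adjusted over all gene bodies by the Benjamini-Hochberg method), the second smallest p of 16686 gene bodies. The fold was 6.43 in replicate 1 and 6.54 in replicate 2. In HIF1A-/- cells the folds were 1.34 and 1.14, and the fitted log2 difference of 0.30 (95% confidence interval -0.12 to 0.72) did not pass (adjusted p = 1). The responses of the genotypes differed by 2.40 (SE 0.257, adjusted p = 0.0616, edgeR interaction), the third smallest p of the table.

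The WT response of PDK1 kept its size when single libraries were left out, and lost its call without either WT normoxia library. It was called in the other 10 of the 12 alternative settings. Without replicate 1 of WT normoxia the log2 change was 2.56 with an adjusted p of 0.116, and without replicate 2 it was 2.85 with 0.155. In neither fit was any gene of the table called. The interaction was called without either HIF1A-/- normoxia library and lost without any of the other 6, at 2.23 to 2.56 with adjusted p up to 0.487, and on library totals without TMM, at 2.40 with 0.101. With the replicate number as a block it was 2.39 with an adjusted p of 0.00140.

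**Figure D1:**
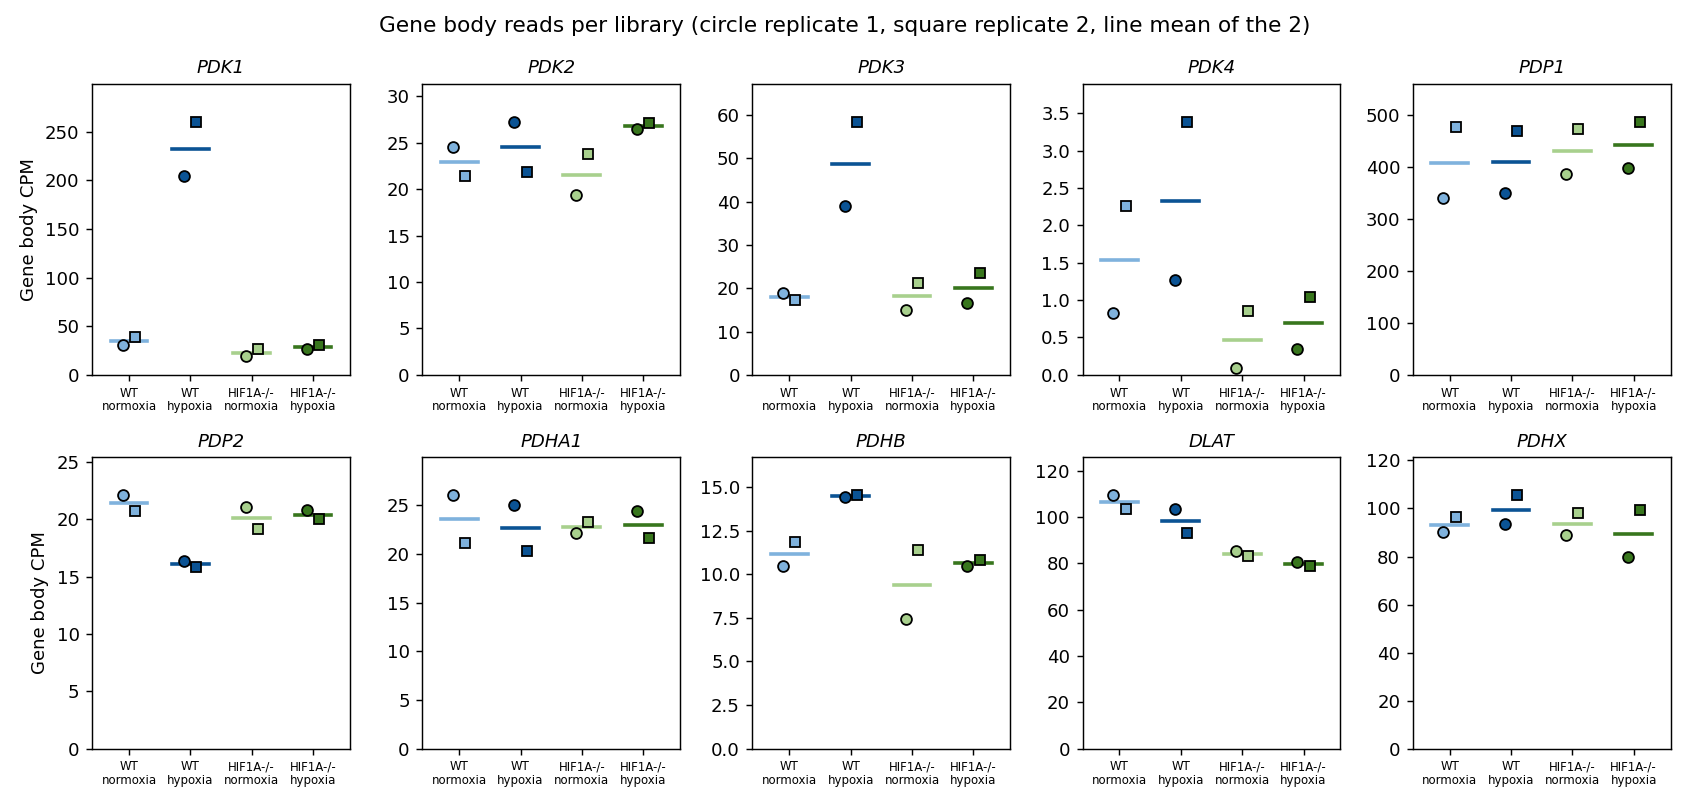
Gene body level in CPM (linear axis from 0, own scale for each gene) of the 10 genes in each of the 8 libraries, with circles for replicate 1, squares for replicate 2 and a line at the mean of the 2. PDK1 is at 204 and 261 CPM in WT hypoxia and at 39.1 or less elsewhere, PDK3 at 39.0 and 58.5 against 23.6 or less, while PDP1, PDHA1 and PDHX overlap between all groups.

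PDK3, another kinase of the complex, had the next largest difference. WT gene body levels, over chrX:24484344-24552542, were 18.9 and 17.2 CPM in normoxia and 39.0 and 58.5 CPM in hypoxia, and those of HIF1A-/- cells 15.1 and 21.1 CPM in normoxia and 16.7 and 23.6 CPM in hypoxia. Both WT hypoxia libraries were above all the others, and the other 3 groups overlapped. The WT log2 difference of 1.40 (SE 0.246) narrowly missed the threshold (adjusted p = 0.101, edgeR) and passed with the replicate block (1.36, adjusted p = 0.00714), with DESeq2 (adjusted p = 9.20e-05) and without the filter (adjusted p = 0.0503). Of the 12 alternative settings, those with a library left out included, only 5 called it, and over the 12 the difference ran from 1.10 to 1.65. The fold was 2.02 in replicate 1 and 3.33 in replicate 2. For HIF1A-/- cells the log2 difference was 0.11 (95% confidence interval -0.45 to 0.68). The difference between the genotypes' responses, 1.28 (SE 0.345), did not pass over all genes (unadjusted p = 0.00590, adjusted p = 1.00, edgeR interaction).

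PDK2, a widely expressed kinase, lay between 19.4 and 27.3 CPM in all 8 libraries. Its counted body overlaps SAMD14, and that of PDHA1 overlaps MAP3K15, both on the opposite strand, and reads were counted by strand. Its WT difference was 0.07 on the log2 scale (95% confidence interval -0.36 to 0.49) and its HIF1A-/- difference 0.28 (-0.15 to 0.70). PDK4, the kinase known for its induction by fasting and fatty acids, had few reads. In WT cells its gene body had 17 and 41 reads at normoxia against 24 and 80 at hypoxia, and in HIF1A-/- cells 2 and 18 against 7 and 21. In each group replicate 2 was the higher. The WT log2 difference of 0.58 had a confidence interval of -1.42 to 2.58, which leaves a change of either sign possible.

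The phosphatases did not pass the test in either genotype. PDP1, the calcium-stimulated phosphatase, had 341 and 475 CPM in WT normoxia and 350.3 and 468 in WT hypoxia, with 386 to 487 in the HIF1A-/- libraries. Replicate 2 was above replicate 1 in every group, and the WT log2 difference was -0.03 (95% confidence interval -0.47 to 0.42). PDP2, the other phosphatase, had 22.1 and 20.7 CPM in WT normoxia and 16.4 and 15.8 in WT hypoxia, against 19.1 to 21.1 in the HIF1A-/- libraries. Its WT hypoxia libraries were the lowest of the 8, with a log2 difference of -0.44 (SE 0.172, unadjusted p = 0.0342, adjusted p = 0.897, edgeR; adjusted p = 0.111 with the replicate block).

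The 4 subunits of the complex did not pass the test in either genotype. PDHA1, the E1 alpha subunit that carries the phosphorylated sites, was at 20.4 to 26.0 CPM in all 8 libraries. PDHB, the E1 beta subunit, had 10.5 and 11.9 CPM in WT normoxia and 14.4 and 14.5 in WT hypoxia, against 7.41 and 11.4 in HIF1A-/- cells at normoxia and 10.5 and 10.8 at hypoxia. The WT hypoxia libraries were the highest 2, but the log2 difference of 0.34 had a confidence interval of -0.17 to 0.85. DLAT, the E2 acetyltransferase core, differed by -0.14 in WT cells (-0.45 to 0.16), and PDHX, the protein that binds E3 to the core, by 0.06 (-0.24 to 0.36). Without HIF1A the 4 subunits lay between -0.12 and 0.15. APIP, which starts 282 bp from PDHX on the opposite strand, was at 36.7 to 45.3 CPM and differed by 0.04 in WT and 0.05 in HIF1A-/- cells.

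In gene bodies of WT cells, 1 of the 10 genes was thus called in hypoxia, with 72 of all 16686 genes tested (0.431%), all of them higher. The median log2 change was 0.06 for the 10 genes and -0.02 for all genes. With the replicate block 2 of the 10 were called, PDK1 and PDK3, against 5.51% of all genes. In HIF1A-/- cells 0 of the 10 were called by edgeR, by DESeq2 or with the block, and 0 had an unadjusted p below 0.05, where edgeR called 0% of all genes at the FDR, 0.0360% with the block, and 2.08% had such a p. The interaction was called for 1 of the 10, PDK1, and for 9 genes in all (0.0539%, and 0.384% with the block). These comparisons use the same libraries and are not independent of each other.

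**Figure D2:**
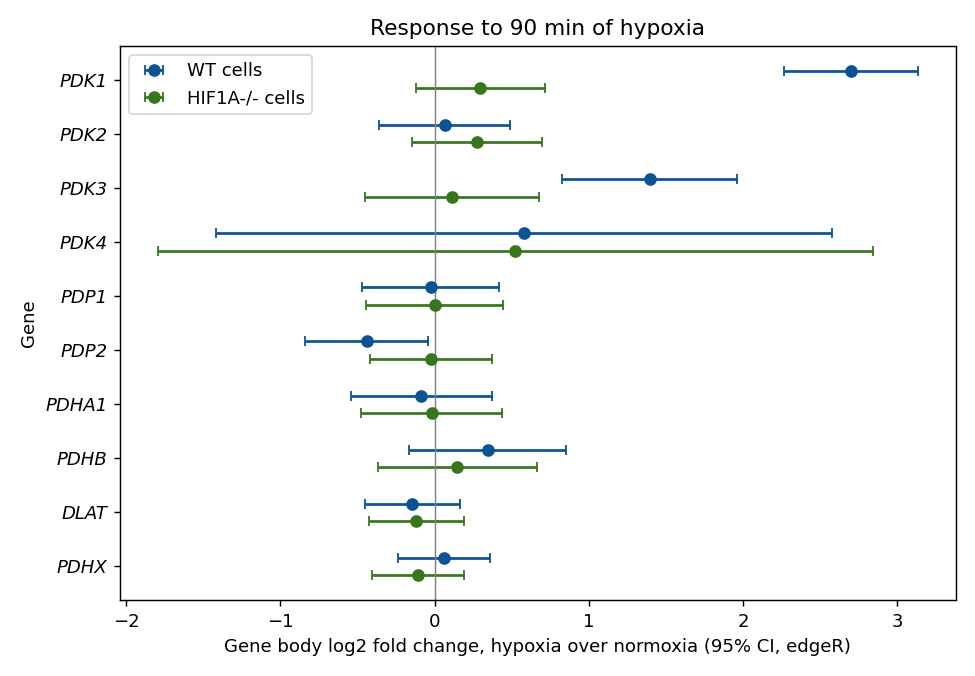
Gene body log2 fold change of hypoxia over normoxia for each gene in WT (blue) and HIF1A-/- cells (green), with 95% confidence intervals from edgeR. PDK1 (2.70) and PDK3 (1.40) lie to the right in WT cells, PDK4 has the widest intervals, and every HIF1A-/- interval crosses 0.

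Per length of gene body, as RPKM, CPM divided by the body's length in kilobases, the order of the genes in WT normoxia was led by PDP1 at 42.5 and 59.3. DLAT followed at 2.84 and 2.69, then PDP2 at 2.30 and 2.16 and PDHB at 2.01 and 2.27. PDK2 (1.67 and 1.46) and PDHA1 (1.55 and 1.26) came next, ahead of PDHX (1.14 and 1.22), PDK1 (0.737 and 0.926), PDK3 (0.278 and 0.252) and PDK4 (0.0678 and 0.187). Of these neighbours, PDP2 and PDHB overlapped, as did PDK2 and PDHA1, and the others did not. Only 1 of 9 protein-coding starts of PDP1 lies in its counted TSS region. Whether others lie in its counted body was not examined, so its body level may include reads near such starts. In WT hypoxia PDK1 stood second in place of eighth, at 4.84 and 6.18 RPKM. In HIF1A-/- hypoxia it was still eighth, at 0.637 and 0.724.

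In gene bodies PDK2 led the make-up of kinase transcription in 3 groups and PDK1 in WT hypoxia. PDK2 gave most of the summed kinase RPKM in WT normoxia, 60.7% and 51.7%, and PDK1 gave 26.8% and 32.8%. In WT hypoxia PDK1 gave 65.6% and 70.2% and PDK2 25.2% and 16.9%. In the 4 HIF1A-/- libraries PDK1 stayed at 22.8% to 24.1%, a narrow range at both oxygen levels. PDK3 gave 7.75% to 11.8% in every library, its own level and the sum both being higher in WT hypoxia. The order depends on the region counted. At the TSS PDK2 gave 4.74% to 18.4% of the summed kinase density in all 8 libraries, PDK3 37.6% to 48.6% and PDK1 36.2% to 48.6%. PDK3 led there in both WT normoxia libraries, with 45.1% and 47.9%, and PDK1 in both WT hypoxia libraries, with 48.6% and 46.8%. Without HIF1A, PDK3 led in both normoxia libraries, with 41.0% and 48.6%, and in hypoxia PDK1 led in replicate 1, with 42.7%, and PDK3 in replicate 2, with 47.3%.

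The summed level of the 4 kinases was 2.75 and 2.82 RPKM in WT normoxia and 7.38 and 8.80 in WT hypoxia. It was 2.01 and 2.62 in HIF1A-/- cells at normoxia and 2.71 and 3.00 at hypoxia. The summed phosphatases, nearly all PDP1, ran from 44.8 to 62.8 RPKM with overlap of all groups, and share the limit on the PDP1 body level. Relative to the summed subunits, kinase transcription was 0.365 and 0.380 in WT normoxia and 0.908 and 1.14 in WT hypoxia, against 0.330 to 0.451 in HIF1A-/- cells. These sums were given no test, and they count polymerases on genes, not enzyme.

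**Figure D3:**
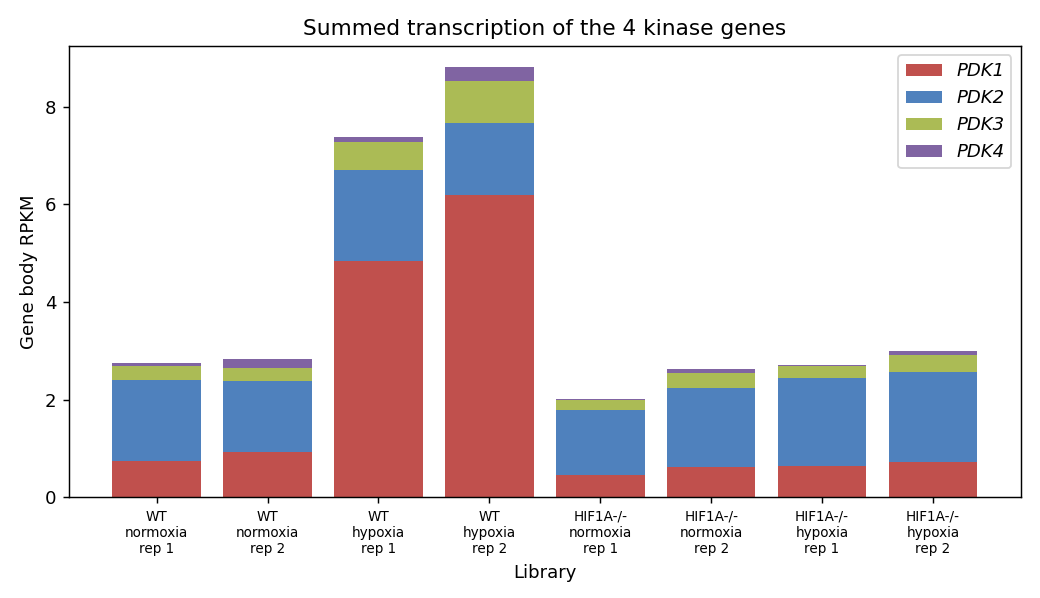
Gene body RPKM of PDK1, PDK2, PDK3 and PDK4 stacked for each of the 8 libraries (linear axis from 0). The WT hypoxia bars reach 7.38 and 8.80 through their PDK1 part, and the other 6 stand between 2.01 and 3.00 with PDK2 as the largest part.

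At the start site the PDK1 difference was smaller than in the gene body. TSS levels of PDK1 were 62.2 and 84.7 CPM in WT normoxia and 132 and 149 in WT hypoxia, against 59.6 and 70.2 in HIF1A-/- cells at normoxia and 66.4 and 75.3 at hypoxia. Both WT hypoxia libraries were above all others and the other groups overlapped. The WT log2 difference of 0.97 (SE 0.194) did not pass with edgeR (adjusted p = 0.378) and passed with the replicate block (0.98, adjusted p = 7.10e-04), with DESeq2 (adjusted p = 0.0342) and without the filter (adjusted p = 0.00248). Only these 3 of the 12 alternative settings called it, and over the 12 the difference ran from 0.76 to 1.21. At TSS regions 0 of the 10 genes were called by edgeR in WT cells, against 0.0460% of all 15212 tested, 2 had an unadjusted p below 0.05 (PDK1 and PDP1) as did 4.02% of all, and DESeq2 called 1. With the block 1 was called, against 1.01% of all. In HIF1A-/- cells both tools called 0, and 0 had such a p, against 0% of all genes called by edgeR and 0.887% with such a p. For the interaction edgeR and DESeq2 called 0 and PDK1 alone had such a p, against 0.00657% called and 1.18% with such a p over all genes.

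The ratio of TSS to gene body reads compares polymerase near the start, where it pauses, with polymerase in productive elongation. For PDK1 the density ratio was 32.8 and 34.9 in WT normoxia and 12.4 and 11.0 in WT hypoxia. It was 29.9 and 41.5 in HIF1A-/- cells at normoxia and 28.0 and 39.8 at hypoxia. The WT hypoxia libraries were the lowest 2 by a wide margin, and the replicates of the HIF1A-/- line differed more from each other than its oxygen levels did. In WT cells the PDK1 ratio fell by 1.75 on the log2 scale (SE 0.193, adjusted p = 0.00178, edgeR), the smallest p of 14494 genes, and the call held with each library left out in turn. It differed by -0.19 in HIF1A-/- cells (95% confidence interval -0.63 to 0.24).

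The difference between the genotypes in the PDK1 ratio response was -1.56 (SE 0.279, adjusted p = 0.181, edgeR). It passed with the replicate block (adjusted p = 0.0100) and without the filter (adjusted p = 0.00989). Of the 10 genes 1 was called for the ratio in WT cells, with 0.193% of all genes. For HIF1A-/- cells edgeR called 0 and 0 had an unadjusted p below 0.05, against 0% of all genes called and 1.66% with such a p. For the interaction edgeR called 0 and 1 had such a p (PDK1), against 0.0207% called, 1.90% with such a p and 0.145% called with the block.

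PDK3 had the highest density ratio of the set, 101 and 160.3 in WT normoxia and 88.9 and 71.2 in WT hypoxia. The HIF1A-/- libraries, from 64.1 to 112, overlapped both, and the WT difference of -0.90 did not pass (adjusted p = 0.622, edgeR). For several genes the counted TSS region misses annotated starts. That of PDK1 holds 4 of its 6 protein-coding starts, so its TSS and ratio values leave out the other 2. No protein-coding start of DLAT lies in its region, the nearest being 595 bp downstream, and only 1 of 9 starts of PDP1, 2 of 6 of PDHX and 3 of 8 of PDK2 lie in theirs. The low density ratios of PDP1 (0.399 to 0.933), PDHX (0.428 to 1.31) and DLAT (1.67 to 2.66) were measured at those regions. PDHX had only 6 to 17 TSS reads per library.

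**Figure D4:**
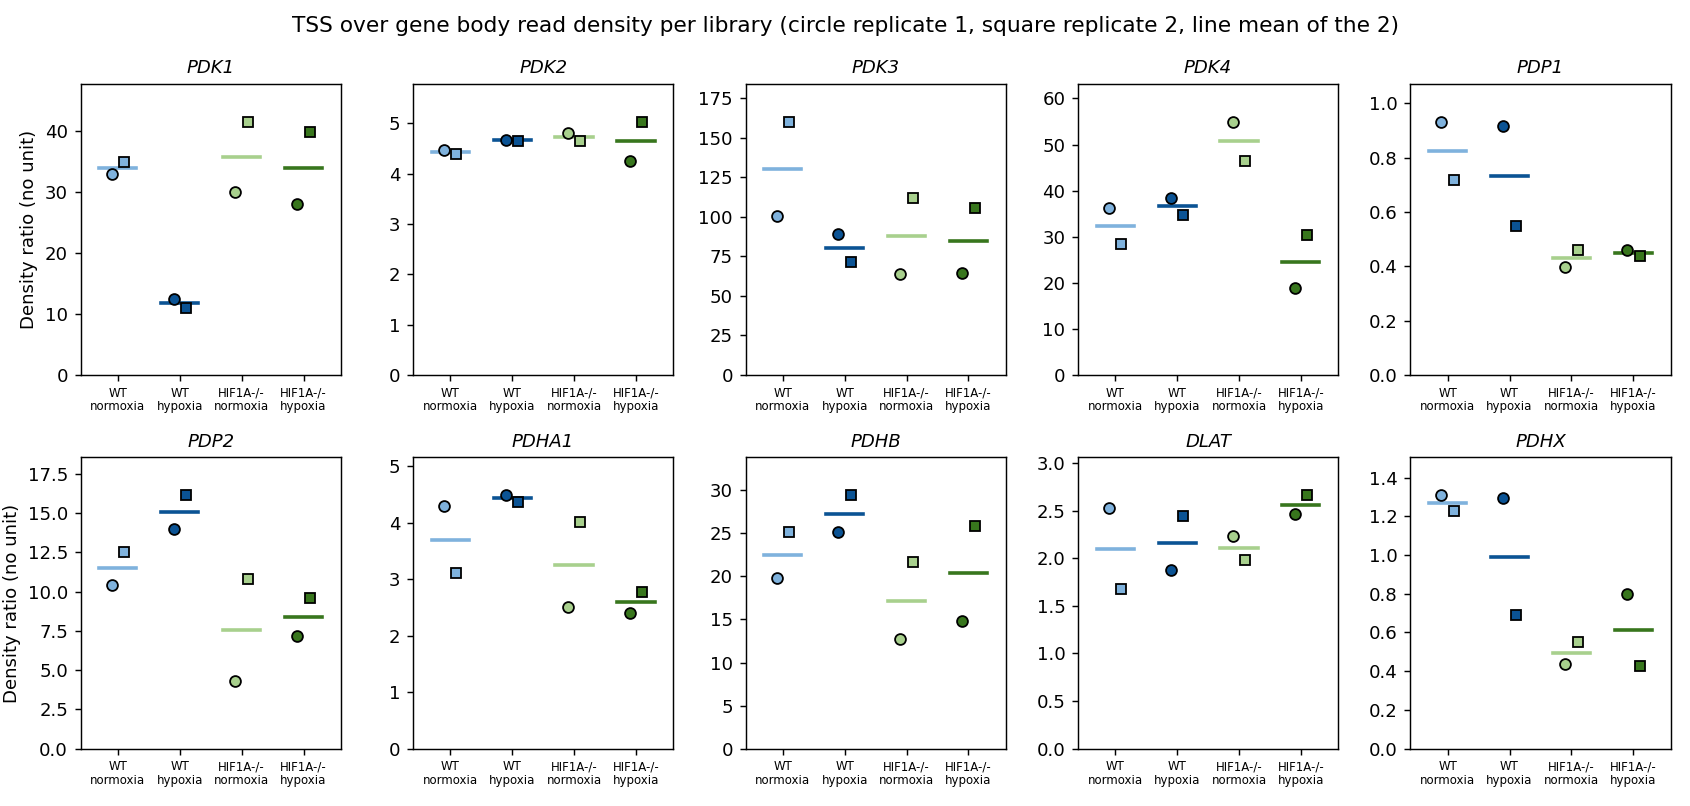
Ratio of TSS to gene body read density (no unit, linear axis from 0, own scale for each gene) in each of the 8 libraries, with circles for replicate 1, squares for replicate 2 and a line at the mean of the 2. PDK1 drops from 32.8 and 34.9 to 12.4 and 11.0 in WT hypoxia, and in several genes the replicate 1 HIF1A-/- libraries lie below replicate 2.

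Between the genotypes, the main fit, which has no term for the replicate number, called PDK1 and PDK3 in hypoxia and no member in normoxia. In hypoxia PDK1 gene bodies were lower in HIF1A-/- than in WT cells by a log2 difference of -3.03 (SE 0.191, adjusted p = 5.23e-04, edgeR), and PDK3 by -1.29 (SE 0.244, adjusted p = 0.0377). The PDK3 call was lost without replicate 2 of WT hypoxia (-0.99, adjusted p = 0.268) and without replicate 1 of HIF1A-/- hypoxia (-1.10, adjusted p = 0.259). These 2 were the members called, against 4.26% of all gene bodies. With the replicate block 5 were called, against 28.2% of all genes, the others being PDK4 (-1.79, adjusted p = 0.0151), DLAT (-0.31, adjusted p = 0.0334) and PDP2 (0.33, adjusted p = 0.0995).

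In normoxia 0 of the 10 were called by edgeR or DESeq2, against 1.78% of all gene bodies by edgeR, and 2 had an unadjusted p below 0.05, as did 9.00% of all. These were PDK1, at -0.63 (SE 0.181, adjusted p = 0.248), and DLAT, at -0.34 (SE 0.133, adjusted p = 0.477). With the replicate block PDK1 (adjusted p = 0.00859), DLAT (adjusted p = 0.0460) and PDK4 (-1.80, adjusted p = 0.0412) were called, against 10.3% of all genes. DLAT lay at 93.2 to 109 CPM in the 4 WT libraries, above all 4 HIF1A-/- libraries at 78.9 to 85.3. The PDK4 difference in normoxia rests on gene body counts of 2 to 41 reads.

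At TSS regions PDK1 was lower in HIF1A-/- than in WT hypoxia by -1.01 (SE 0.195, adjusted p = 0.0364, edgeR), the only member called there, against 1.10% of all genes. The call was lost without any 1 of the 4 hypoxia libraries, at -0.91 to -1.11 with adjusted p of 0.132 to 0.406. With the block PDK3 (-0.72, adjusted p = 0.00362), PDK4 (-1.82, adjusted p = 0.00277) and PDHB (-0.43, adjusted p = 0.0490) were called too, against 14.4% of all genes. In normoxia edgeR and DESeq2 called 0 TSS regions of the set, against 0.657% of all genes by edgeR, and PDP1 alone had an unadjusted p below 0.05, against 7.99% of all. For the ratio in normoxia edgeR called 0, against 0.0966%, and PDK1 alone had such a p, against 6.36%. The low TSS totals of the replicate 1 HIF1A-/- libraries move with these comparisons, and their part in them was not tested.

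Around the complex, 17 further genes of pyruvate and related 2-oxo acid handling were read from the same fits. In WT hypoxia 2 of the 17 gene bodies were called, both higher, against 0.431% of all gene bodies. LDHA, the lactate dehydrogenase subunit that takes pyruvate to lactate, had 158 and 156 CPM in WT normoxia and 474 and 541 in WT hypoxia, with 147 to 178 in the 4 HIF1A-/- libraries. It rose by 1.66 (SE 0.155, adjusted p = 0.00761, edgeR), and its ratio of TSS to gene body reads fell by 1.30 (adjusted p = 0.0368). BCKDHA, a subunit of the branched-chain 2-oxo acid dehydrogenase, a complex built like pyruvate dehydrogenase, had 34.4 and 28.9 CPM in WT normoxia and 71.9 and 67.6 in WT hypoxia, with 28.8 to 33.0 in HIF1A-/- cells. It rose by 1.11 (SE 0.151, adjusted p = 0.0393).

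The other 15 gene bodies lay between -0.38 and 0.67 in WT hypoxia, and the median of the 17 was 0.04, that of all genes being -0.02. With the block LDHA, BCKDHA, BCKDHB, BCKDK and PDPR were called higher and CS lower, against 5.51% of all gene bodies. BCKDK, the kinase of the branched-chain complex and a relative of the PDK family, was at 0.67 (adjusted p = 0.748, edgeR; 0.0794 with the block). In HIF1A-/- cells 0 of the 17 were called by edgeR or DESeq2, 0 had an unadjusted p below 0.05, and their range was -0.18 to 0.21, where 0% of all gene bodies were called by edgeR and 2.08% had such a p. The interaction was called by edgeR for 0 of the 17 without the block, where 3 had such a p and DESeq2 called 2, and for LDHA (1.62, adjusted p = 0.0101) and BCKDHA (1.02, adjusted p = 0.0488) with it. Over all gene bodies the interaction was called for 0.0539% without the block and 0.384% with it. Between genotypes 1 of the 17 was called in normoxia, against 1.78% of all gene bodies. It was MPC1, a subunit of the mitochondrial pyruvate carrier, lower in HIF1A-/- cells by -0.81 (adjusted p = 0.0990, edgeR). In hypoxia 3 were called, against 4.26%, all lower in HIF1A-/- cells, namely LDHA (-1.60, adjusted p = 0.00245), BCKDHA (-1.16, adjusted p = 0.00906) and BCKDHB (-0.75, adjusted p = 0.0864). MPC1, at -0.70, narrowly missed the threshold in hypoxia (adjusted p = 0.1003). With the block 2 were lower in normoxia, against 10.3% of all gene bodies, the added one being PC, pyruvate carboxylase (-0.52, adjusted p = 0.0134). In hypoxia the block gave 5 lower and 1 higher, against 28.2%, the added genes being MPC1 (-0.69, adjusted p = 0.0142), PC (-0.61, adjusted p = 0.00397) and, higher, CS, citrate synthase (0.29, adjusted p = 0.0593). At TSS regions 16 of the 17 were tested. There edgeR called 0 in WT hypoxia, against 0.0460% of all, and 1 with the block, against 1.01%. Between genotypes in hypoxia edgeR called 1, lower in HIF1A-/- cells, against 1.10%. The block gave 4 lower and 1 higher there, against 14.4%. In normoxia edgeR called 0, against 0.657%, and the block 1 lower, against 311 lower of all 15212. The ratio interaction was called for 0, against 0.0207%, and for 1 with the block, against 0.145%.

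The gene bodies whose levels followed PDK1 most closely over the 8 libraries were found by the root mean square difference of log2 CPM after each gene's own mean was taken off. They were PFKFB4 at 0.278, FAM162A at 0.284, INSIG2 at 0.302, C4orf47 at 0.304 and BNIP3 at 0.384, where the median of 16685 genes was 1.35. PFKFB4 makes and removes a regulator of glycolysis, and BNIP3 is a mitochondrial outer membrane protein. Their WT log2 changes were 2.64, 2.52, 2.27, 2.67 and 2.66 and those in HIF1A-/- cells 0.03, -0.14, 0.01, -0.08 and -0.14, in the same order. As the 5 were chosen for likeness over these same libraries, such changes follow from the choice. The edgeR interaction did not pass for INSIG2 (adjusted p = 0.373) or C4orf47 (0.814), and passed for PFKFB4, FAM162A and BNIP3 (0.0616 for each). Of the other members PDK3 came closest, at rank 84 with 0.770, then PDK4 at rank 850 with 1.03 and PDHB at rank 1728 with 1.11. The rest ranked from 5444 to 13808. This is a description of likeness in level over libraries that share their conditions.

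**Figure D5:**
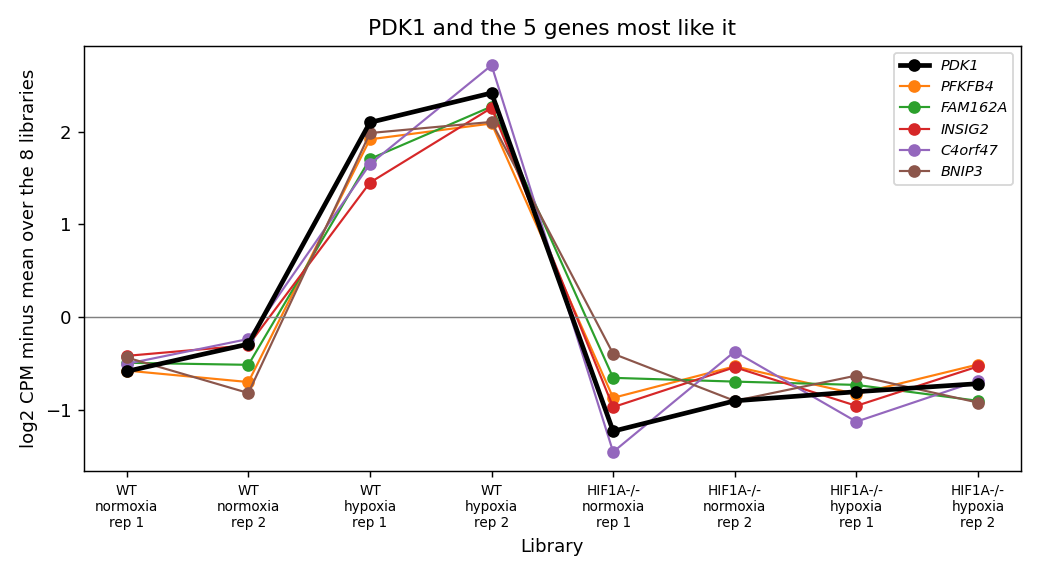
Gene body log2 CPM minus the gene's mean over the 8 libraries (linear axis in log2 units) for PDK1 (thick black line) and the 5 genes most like it, by library. All 6 are highest in both WT hypoxia libraries and below their mean in the other 6 libraries.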

How the data were processed

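PRO-seq reads were trimmed, aligned to GRCh37 with HISAT2 (2.1.0), filtered with SAMtools (1.5) and counted with featureCounts from Subread (1.6.2) by the authors, who deposited raw counts per gene for a TSS region of 551 bp and a gene body. A single start and body were kept per gene, so other starts are not measured. Counting used strand: of gene bodies inside an active gene, 112 of 112 on its strand were at 0, against 67 of 432 on the opposite strand.

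Libraries were grouped by their labels. Genes above 0.5 CPM in at least 2 libraries were kept (16686 gene bodies, 15212 TSS regions, 14494 in both), TMM scaled the libraries, and edgeR 4.0.16 (R 4.3.3) tested the counts in 1 fit of the 4 group means, with Benjamini-Hochberg adjustment over all genes and calls at an FDR of 10%. The ratio fit had a term for each library. DESeq2 1.42.0 was an alternative. Levels are CPM of table totals, log2 CPM used a prior count of 2, and folds by replicate used TMM CPM. The scripts were tested on simulated data. Replicates of a group differed by more than counting noise (chi-square per degree of freedom at least 5.00). Libraries with the same replicate number in the labels deviated together in all 6 pairs of groups (correlations across genes 0.216 to 0.790). The main fit leaves this pairing out, so blocked values, which take the numbers as pairs, are given where a call changes. Promoter windows came from the GRCh37 sequence, and start sites and exons from GENCODE v44 lifted to it. All members, HIF1A, called gene bodies of the list of 17, the 5 nearest genes and neighbours within 1000 bp are named. Members and lists were chosen with earlier results of these data known.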

Additional observations from a re-analysis of the deposited data

Results flagged for a closer look

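The gene body response of PDK1 differed between the genotypes by 2.40 on the log2 scale (WT response minus HIF1A-/- response, SE 0.257, adjusted p = 0.0616, edgeR interaction), with a rise in 2 of 2 WT replicates, 6.43-fold and 6.54-fold, against 1.34-fold and 1.14-fold in the HIF1A-/- replicates. It is listed because the difference itself passed the test. The adjusted p was 0.00140 with the replicate block, 3.37e-12 with DESeq2 and 0.0121 without the filter, and it missed the threshold on library totals without TMM (0.101) and without either WT normoxia, either WT hypoxia or either HIF1A-/- hypoxia library (0.116 to 0.487).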

How the results depend on the processing

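Of 1640 values of the 10 genes recomputed under the alternatives, 1517 kept their side of the threshold, those not called staying within the SE of the main value. A further 22 gained and 15 lost a call, and 86 that were not called moved by more than that SE. Of the values called in either fit 0 changed sign. Some uncalled ones did, such as PDK2 in gene bodies of WT hypoxia (-0.11 to 0.24). In gene bodies of WT hypoxia the number of members called, 1, became 2 with DESeq2, without the filter and with the replicate block, and 0 to 2 with 1 library left out. The interaction count, 1, became 0 on library totals without TMM and 0 to 1 with 1 library left out. Between genotypes the gene body count with the replicate block was 3 in normoxia (0 without it) and 5 in hypoxia (2 without it, and 1 to 2 with 1 library left out). At TSS regions the WT hypoxia count, 0, became 1 with DESeq2, without the filter and with the replicate block, and the count between genotypes in hypoxia, 1, became 3 without the filter, 4 with the block and 0 to 1 with 1 library left out. For the ratio the WT count was 2 without the filter, and the interaction count 1 without the filter and with the block. The block changed no other count. Measured at the TSS in place of the gene body, the mean PDK1 share of the kinases was 38.6% at normoxia and 47.7% at hypoxia in WT cells and 37.9% and 40.0% in HIF1A-/- cells, against 29.8% and 67.9% and 23.3% and 23.8% in gene bodies. Over all genes, WT hypoxia calls in gene bodies numbered 72, against 175 with DESeq2, 919 with the block and 0 to 89 with 1 library left out, and HIF1A-/- calls 0, against 8 and 6, and 347 genes had an unadjusted p below 0.05 there. The interaction calls numbered 9, against 68, 64 and 0 to 10, and those between genotypes 297 in normoxia, against 630, 1722 and 75 to 269, and 711 in hypoxia, against 1311, 4706 and 165 to 863. At TSS regions WT hypoxia calls numbered 7, against 15 with DESeq2, 63 without the filter and 153 with the block, HIF1A-/- calls 0, against 0, 2 and 1, interaction calls 1, against 3, 8 and 7, and those between genotypes 100 in normoxia, against 137, 406 and 652, and 168 in hypoxia, against 312, 1063 and 2196. For the ratio WT calls numbered 28, against 78 without the filter and 79 with the block, interaction calls 3, against 22 and 21, and those between genotypes in normoxia 14, against 113 and 106. With 2 libraries per group depth limits PDK4 (2 to 80 gene body reads) and the TSS of PDHX (6 to 17 reads) most. Where a library was left out the lone library of its group was assumed to vary like the other groups. The cause of the changes in calls was not tested.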
